A study of Homo sapiens with 12 samples.

Results

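HT29 cells that had spent 48 h with 70 nM methotrexate were compared with HT29 cells that had spent 8 h with it. HT29 is an established human colon adenocarcinoma line, and the design text calls it sensitive to the drug. The comparison rests on 6 of the 12 arrays of the series, taken by their titles: 3 at 8 h and 3 at 48 h. The other 6 arrays were an untreated control, taken as 0 h, and a 24 h group at the same dose, each with 3 arrays. The titles call the replicates biological, and the labels do not say whether they came from separate cultures, so p-values measure the spread between these arrays. No untreated array at 8, 24 or 48 h was analysed here, so time with methotrexate and time in culture cannot be told apart. All groups are the same cell line in the same medium, and no other agent is named.

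Methotrexate is a folate analogue that interferes with folate metabolism. Reduced folates then run short, and with them the 1-carbon units that thymidylate synthase and the de novo purine pathway need. Cells respond over many hours: DNA synthesis stalls, nucleotide pools shrink, and the production of ribosomes, which depends on purine nucleotides, can slow. Setting the earliest treated group against the latest shows which expression changes differed between them.

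Expression was measured on Affymetrix human gene arrays, with 18377 genes tested. Values are log2 ratios against the median of the 3 control arrays, so 0 is the control level, 1 is a doubling and -1 a halving. Because absolute levels are not held in these values, neither the level of a gene nor the presence of epithelial markers could be read from them, and levels were not compared between genes. The 48 h replicate 3 array stood apart. Its root mean square difference from the other 48 h arrays was 0.208 and 0.184 over genes, against 0.094 to 0.143 for the other pairs of replicates. The median SD of a gene was 0.0869 at 48 h and 0.0654 at 8 h. Results are therefore also given without that array where it matters.

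From 8 to 48 h, 2816 genes rose and 2648 fell, which is 15.3% and 14.4% of those tested (limma, adjusted p under 0.05), or 5464 genes and 29.7% in all. Most changes were small: 131 genes rose at least 2-fold (0.713%) and 55 fell at least 2-fold (0.299%). Over all genes the median difference was -0.011 and the median SE 0.066. For 5315 of the called genes the 3 values at 48 h did not overlap the 3 values at 8 h, and for 149 they did. Values did not overlap in 18.3% of all genes with 48 h above and in 19.5% with 48 h below. The mean at 24 h lay between those at 8 and 48 h for 81.6% of the called genes, against 49.8% of all genes. Called genes were chosen for a gap between those times, which by itself makes a mean in between more likely. Without 48 h replicate 3, 2984 genes rose and 2772 fell. RNA came from whole cultures, so fewer cells of a type and less RNA per cell cannot be told apart.

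**Figure D1:**
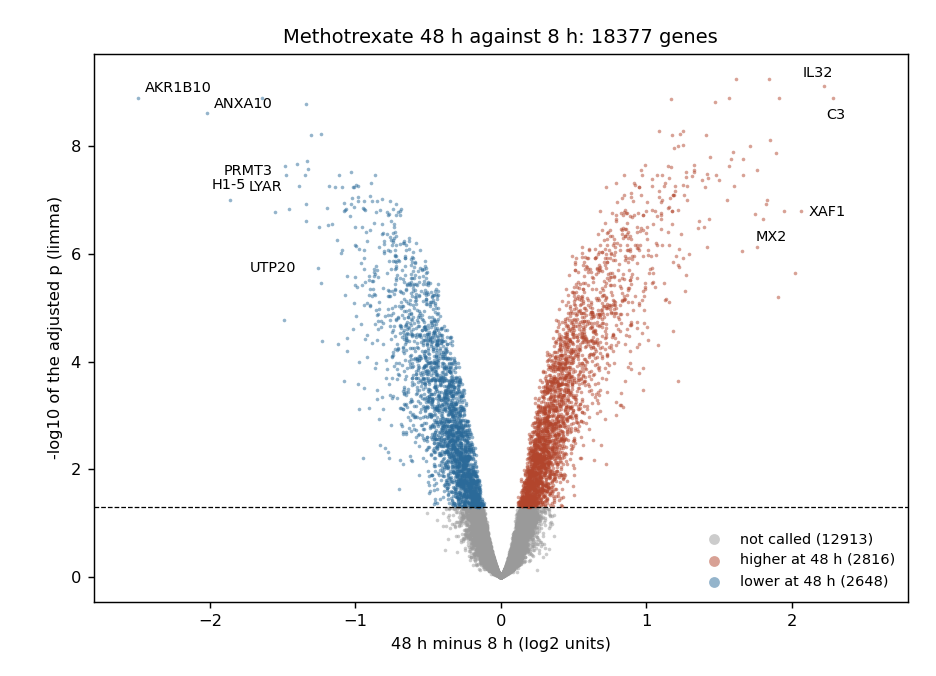
Each point is 1 of the 18377 genes, placed by its difference between 48 h and 8 h (horizontal axis, log2 units) and by the -log10 of its limma adjusted p (vertical axis); the dashed line marks an adjusted p of 0.05. The 2816 genes that rose and the 2648 that fell are coloured, with C3 and IL32 farthest to the right and AKR1B10 farthest to the left.

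The largest rises were those of C3 and IL32. C3, the central complement protein, stood at -0.10, -0.27 and -0.34 on the 8 h arrays and at 2.12, 2.06 and 1.97 on the 48 h arrays. That is a 4.88-fold rise (difference 2.29, SE 0.08, adjusted p = 1.24e-09), and the values of both times lay far apart. IL32, a proinflammatory cytokine, went from -0.31, -0.10 and -0.16 to 2.01, 2.03 and 2.07, a 4.68-fold rise (SE 0.07, adjusted p = 7.42e-10). At 8 h IL32 was called slightly below control (adjusted p = 0.0202) and C3 was not called (adjusted p = 0.148). The 24 h means were 0.55 for C3 and 0.40 for IL32, so most of both rises came after 24 h.

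Other large rises began from a different level at 8 h. XAF1, an interferon-induced proapoptotic protein, was far below control at 8 h (-2.28, -2.54 and -2.90) and stayed below it at 48 h (-0.48, -0.40 and -0.64) after a 4.19-fold rise. TP53INP1, a stress protein of autophagy and cell death, was at -1.31 on each of the 3 arrays at 8 h and at 0.77, 0.58 and 0.18 at 48 h, a 3.54-fold rise. LAPTM5, a lysosomal membrane protein, was already above control at 8 h (0.69, 0.47 and 0.20) and reached 2.59, 2.31 and 2.30. The 15 largest rises also held SECTM1, the glucose transporter SLC2A12, GSDMB of the gasdermin family, UBA7, which activates ISG15, and the adhesion molecule MCAM. They were completed by MX2, ACTBL2, LRRN1, ANKRD29 and the urothelial protein UPK2, with differences of 1.76 to 2.29 over the 15.

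The largest fall was that of AKR1B10, an aldo-keto reductase. It stood at 1.65, 1.52 and 1.56 at 8 h and at -1.02, -0.74 and -1.0 at 48 h. It was 5.63-fold lower at 48 h (difference -2.49, SE 0.09, adjusted p = 1.24e-09), going from well above control to well below it. ANXA10, an annexin, was at control level at 8 h (0.08, -0.04 and 0.06) and at -1.94, -1.85 and -2.16 at 48 h. CALB2, the calcium-binding protein calretinin, went from 0.27, 0.42 and 0.34 to -1.26, -1.37 and -1.27, and was 3.12-fold lower.

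POLR3G, a subunit of RNA polymerase III, fell from 1.07, 0.86 and 1.06 to -0.41, -0.66 and -0.60. GEMIN5, which assembles the snRNPs of the spliceosome, fell from 1.04, 0.99 and 1.15 to -0.25, -0.19 and -0.43. PRMT3, a methyltransferase of ribosomal protein S2, was 2.79-fold lower, and the nucleolar protein LYAR 2.62-fold lower. The other large falls were the histones H1-5, H3C12 and H4C4, the enzymes AKR1C2 and ALDH3A1, the amino acid transporters SLC7A11 and SLC38A5, and NDUFAF4, which assembles respiratory complex I. Differences ranged from -2.49 to -1.34 over the 15. Lack of overlap between the times was a condition for choosing both these falls and the 15 rises.

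**Figure D2:**
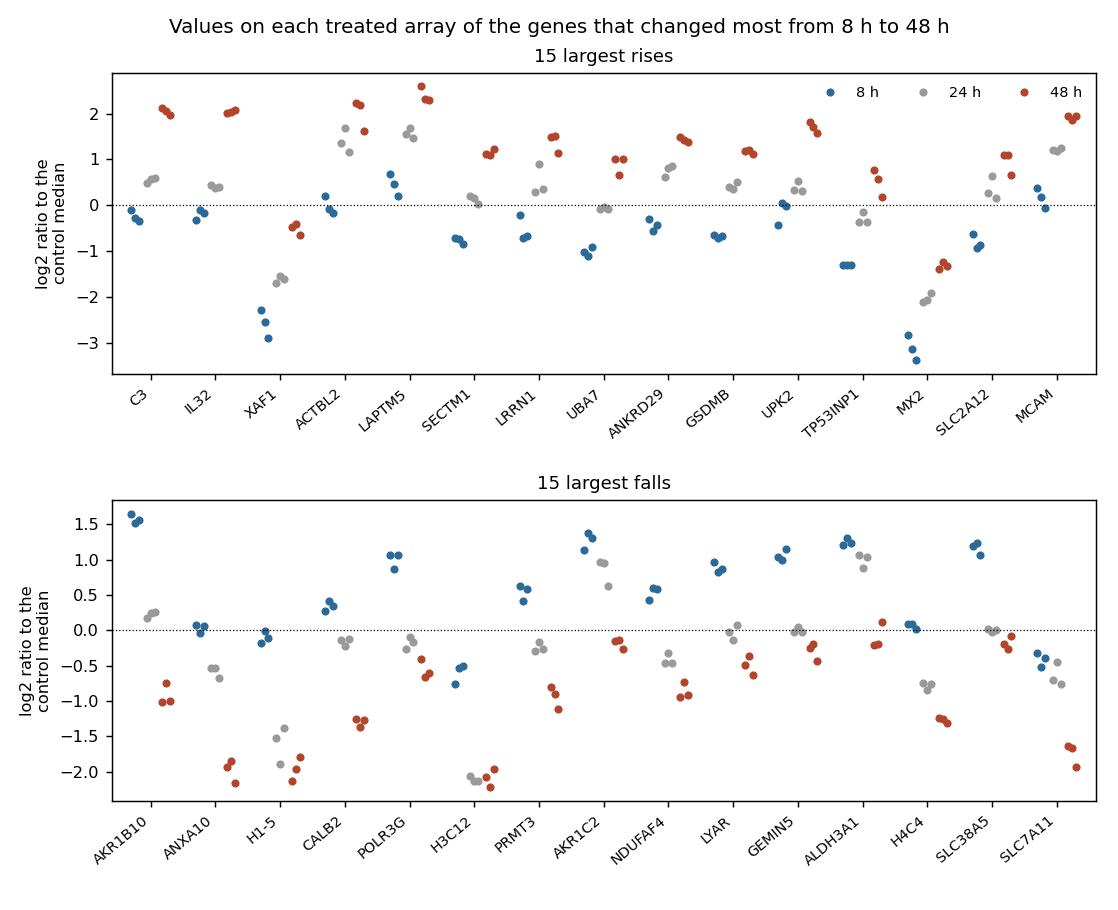
Points are the values of single arrays (vertical axis, log2 ratio to the control median) for the 15 largest rises (top) and the 15 largest falls (bottom), with 3 arrays each at 8, 24 and 48 h. The 8 h and 48 h points of every gene are separate, as the choice of these genes required. C3 and IL32 start near 0 while XAF1 and MX2 start far below it.

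Gene lists put these changes in order. For each list the number of called members is set against the 15.3% of all genes that rose and the 14.4% that fell, and the median difference of the list against the -0.011 of all genes. The lists were not tested as sets. They and their members were chosen with earlier results of these data known, so the shares describe the lists and are not independent evidence.

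**Figure D3:**
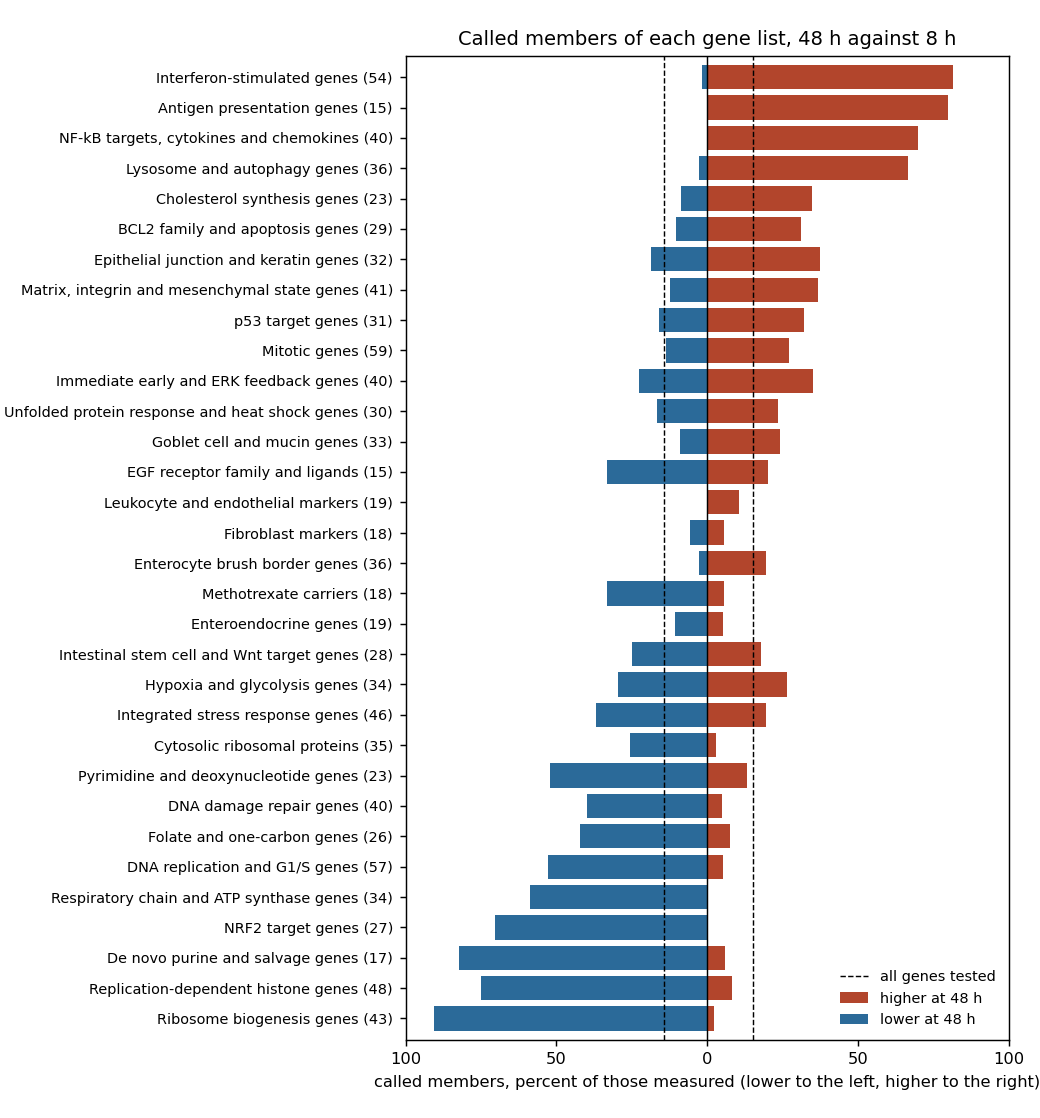
Bars give the percent of measured members of each list called higher (right) or lower (left) at 48 h than at 8 h, with the number measured in parentheses and the lists in order of their median difference. Dashed lines mark 15.3% and 14.4%, the shares of all genes tested; interferon-stimulated genes stand at the top with 44 of 54 higher and ribosome biogenesis genes at the bottom with 39 of 43 lower.

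Interferon-stimulated genes encode antiviral proteins and are switched on by the STAT and IRF factors that act downstream of interferon receptors. Of 54 measured, 44 rose from 8 to 48 h and 1 fell, with a median difference of 0.66. They rose from a low point: relative to control the list median was -1.25 early, -0.87 at 24 h and -0.57 late. Against control, 52 of the 54 were lower at 8 h and 46 still were at 48 h, while 1 was higher. Of all genes, 12.1% were higher and 12.0% lower than control at 8 h, and 13% and 12.3% at 48 h. The list medians of the single arrays were -1.27 to -1.15 at 8 h and -0.64 to -0.58 at 48 h, so no array of either group reached the other.

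MX2, a GTPase that restricts viruses at the nuclear envelope, went from -2.82, -3.14 and -3.37 to -1.38, -1.24 and -1.32, a 3.48-fold rise. IFI44L went from -2.98, -3.39 and -3.39 to -2.03, -1.86 and -2.07 (difference 1.27, SE 0.12), and remained the member farthest below control of those named here. MX1, a related antiviral GTPase, rose 2.30-fold and SAMD9L, a restriction factor, 2.33-fold. IRF9, the DNA-binding subunit of the factor ISGF3, rose 2.29-fold, from -1.60, -1.64 and -1.63 to -0.45, -0.52 and -0.32. At 48 h each of these genes was still below control.

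Single members differed from the rest, of which HERC5 and RTP4 were picked after their values were seen. HERC5, the ligase that attaches ISG15 to proteins, was the 1 member that fell (difference -0.18, SE 0.05, adjusted p = 0.0212). That call was lost without 8 h replicate 1 (adjusted p = 0.0897) or 48 h replicate 2 (0.103). RTP4 was the 1 member that crossed the control level, from -0.53, -0.55 and -0.65 to 0.48, 0.51 and 0.41. UBA7, the enzyme that activates ISG15, is not on the list and went further, from -1.01, -1.10 and -0.91 at 8 h to 1.0, 0.65 and 1.0 at 48 h. It rose 3.70-fold and was above control at the late time.

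Antigen presentation genes, whose products cut, transport and load peptides for MHC molecules, moved with them. Of 15 measured, 12 rose and none fell, with a median difference of 0.43, and medians against control of -0.26 at 8 h and 0.17 at 48 h. PSMB9, a catalytic subunit of the immunoproteasome, went from -0.77, -0.86 and -0.94 to 0.23, 0.25 and 0.44 and rose 2.23-fold. HLA-DMA, which helps load class II molecules, rose 2.06-fold, and TAPBP, which ties class I molecules to the peptide transporter, 1.62-fold. PSMB8 and the transporter subunit TAP1 rose 1.61-fold and 1.55-fold. PSMB9, HLA-DMA, TAPBP and PSMB8 were called below control at 8 h and above it at 48 h. Whether this differs from the interferon-stimulated genes was not tested. HLA-DMA, TAPBP, PSMB8, PSMB9 and TAP1 each had 3 probe sets, with nearly the same differences (1.03 to 1.05 for HLA-DMA, 0.69 to 0.70 for TAPBP). Whether those probe sets share probes was not checked, so their agreement is not independent support. Over genes with 1 probe set, 6 of the 8 members measured rose.

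Many promoters of these genes, but not all, hold a shared element. The interferon-stimulated response element was searched on both strands as GAAA, any 2 bases and GAAA, in the RefSeq windows of 300 bases around each transcription start (GRCh38.p14, 250 bases before and 50 after). It was found in 58.3% of the windows of the interferon list (35 of 60 windows, 44 genes), 55.6% of those of the antigen presentation list and 3.57% of all 35116 windows. It stood in 3.76% of the windows of all genes that rose and 2.56% of those that fell, in 13.7% for genes that rose at least 2-fold and in none of 50 for those that fell at least 2-fold. A match is a description of the letters, not of a factor bound there. No match stood in the windows of XAF1, SAMD9L, HLA-DMA or PSMB9. The 4 windows below were chosen because they hold a match, and another window of MX1 held none. They belong to genes that rose 2.30 to 3.77-fold, and the matches are in capitals. SECTM1 and TNFSF10 are not on either list.
IFI44L, chr1:78620198-78620497, plus strand: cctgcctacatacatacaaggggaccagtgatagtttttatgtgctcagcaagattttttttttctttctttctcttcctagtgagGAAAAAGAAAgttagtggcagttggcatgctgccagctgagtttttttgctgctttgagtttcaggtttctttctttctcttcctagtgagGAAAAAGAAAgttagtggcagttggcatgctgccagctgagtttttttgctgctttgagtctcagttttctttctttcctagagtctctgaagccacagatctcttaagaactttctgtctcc
MX1, chr21:41431800-41432099, plus strand: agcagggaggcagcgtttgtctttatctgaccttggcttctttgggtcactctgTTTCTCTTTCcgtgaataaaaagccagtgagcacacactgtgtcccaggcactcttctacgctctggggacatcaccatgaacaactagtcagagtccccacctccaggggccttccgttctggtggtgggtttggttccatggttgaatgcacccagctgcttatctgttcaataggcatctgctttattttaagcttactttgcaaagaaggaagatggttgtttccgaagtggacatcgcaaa
SECTM1, chr17:82333717-82334016, minus strand: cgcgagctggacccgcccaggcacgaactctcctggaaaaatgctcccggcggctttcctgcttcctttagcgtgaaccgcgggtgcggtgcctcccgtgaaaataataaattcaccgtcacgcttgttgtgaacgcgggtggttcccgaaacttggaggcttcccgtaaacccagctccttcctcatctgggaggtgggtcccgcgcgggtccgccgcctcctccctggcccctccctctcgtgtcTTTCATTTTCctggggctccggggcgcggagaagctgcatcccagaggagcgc
TNFSF10, chr3:172523381-172523680, minus strand: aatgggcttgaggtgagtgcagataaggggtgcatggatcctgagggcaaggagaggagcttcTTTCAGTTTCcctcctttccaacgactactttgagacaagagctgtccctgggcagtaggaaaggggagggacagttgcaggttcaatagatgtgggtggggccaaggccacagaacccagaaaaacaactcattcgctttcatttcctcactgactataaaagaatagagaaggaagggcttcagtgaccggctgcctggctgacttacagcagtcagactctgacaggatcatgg

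SECTM1, a secreted and transmembrane protein that is induced by interferon, rose 3.77-fold, from -0.72, -0.73 and -0.85 to 1.12, 1.10 and 1.23. TNFSF10, the death ligand TRAIL, rose 2.64-fold, from -1.15, -1.52 and -1.61 to 0.01, 0.05 and -0.15, and so came back to the control level. SECTM1 crossed that level and TNFSF10 did not.

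NF-kB targets, cytokines and chemokines rose from near the control level. NF-kB is the main transcription factor of inflammatory signalling in epithelial cells. Of 40 measured, 28 rose and none fell, with a median difference of 0.40. Without 24 h replicate 2, 24 h replicate 3 or 48 h replicate 2, 1 fell. Against control the median was -0.05 at 8 h, 0.10 at 24 h and 0.29 at 48 h, and 26 members were above control at 48 h against 3 at 8 h, when 11 were below it. Besides C3 and IL32, complement factor B (CFB) rose 3.04-fold, from -0.86, -1.02 and -1.02 to 0.54, 0.72 and 0.65. The adhesion molecule ICAM1 rose 2.43-fold, from -0.34, -0.58 and -0.64 to 0.79, 0.78 and 0.71. Both crossed the control level, with no overlap between the times. The mucosal chemokine CCL28 rose 2.27-fold, with 1.13, 1.13 and 0.58 at 48 h, the lowest on replicate 3.

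Feedback genes and secreted factors of this list, named after their values were seen, rose with them. NFKBIA, the inhibitor that holds NF-kB in the cytoplasm, rose 2.15-fold and TNFAIP3, which edits ubiquitin on the same pathway, 2.10-fold. CXCL8, the neutrophil chemokine, went from 0.15, 0.11 and 0.18 to 1.21, 1.11 and 0.93. IL18 rose 1.98-fold and TNF 1.47-fold. The NF-kB site GGGANTTCC stood in 3 of the 47 promoter windows of the list, in 1.85% of all windows, in 1.68% for all genes that rose and in 2.25% for those that fell, a motif added after the values were seen.

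Lysosome and autophagy genes, which serve degradation and recycling, rose in most cases: 24 of 36 rose and 1 fell, with a median difference of 0.25. Their median was -0.14 against control at 8 h and 0.07 at 48 h. After LAPTM5, the largest rises were those of WIPI1, an early autophagy protein (2.11-fold, from -0.66, -0.90 and -0.96 to 0.34, 0.23 and 0.15), and the protease CTSS. CTSS was at -0.40, -0.42 and -0.47 at 8 h and at 0.82, 0.68 and 0.07 at 48 h, so its rise was smallest on the array that stands apart. The sialidase NEU1 rose 1.91-fold and GABARAPL1, of the ATG8 family, 1.74-fold. The 1 member that fell was ATG16L1 (difference -0.23, SE 0.07), a call lost without 8 h replicate 1 (adjusted p = 0.0911), 8 h replicate 2 (0.0691) or 48 h replicate 2 (0.081). Without 24 h replicate 2, 24 h replicate 3 or 48 h replicate 3, 2 members fell.

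The list of p53 targets gave no single direction. Of 31 measured, 10 rose and 5 fell, with a median of 0.06, and 17 rose with array weights. Among those that rose, TP53INP1 led, followed by CDKN1A, the cyclin-dependent kinase inhibitor p21. CDKN1A went from -0.43, -0.51 and -0.42 at 8 h to 0.27, 0.23 and 0.46 at 48 h, a 1.71-fold rise that crossed the control level. MDM2, the ligase that degrades p53, was 1.36-fold lower. SUSD6 and the cytokine LIF rose 1.45-fold and 1.34-fold. Of 29 genes of the BCL2 family and apoptosis, 9 rose and 3 fell, and 16 rose with array weights. With TNFSF10 rose BMF, a BH3-only protein (1.78-fold), CFLAR, an inhibitor of caspase 8 (1.73-fold), BIRC2 (1.44-fold) and the initiator caspase CASP9 (1.42-fold), whose roles lie on both sides of cell death. The 2 probe sets of CFLAR gave differences of 0.44 and 1.14.

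**Figure D4:**
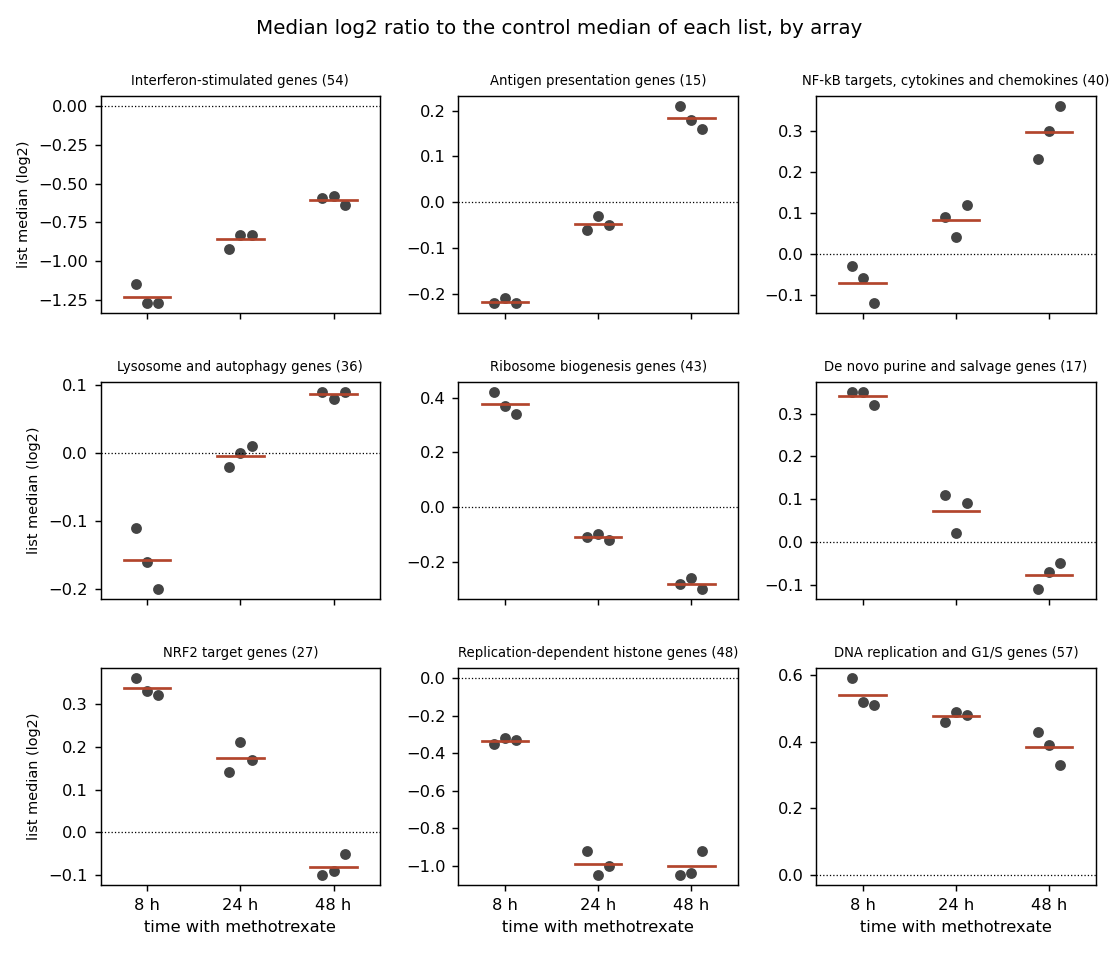
Each point is the median log2 ratio to the control median (vertical axis) of the measured members of a list on 1 array, with 3 arrays at 8, 24 and 48 h; the bars are means of 3 points, the dotted line is the control level, and each panel has its own scale. Interferon-stimulated genes lie between -1.27 and -1.15 at 8 h and between -0.64 and -0.58 at 48 h, below control throughout, while ribosome biogenesis genes go from 0.34 to 0.42 at 8 h to -0.30 to -0.26 at 48 h.

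Ribosome biogenesis genes had the largest share of called falls of the lists counted here. Their products transcribe, cut, modify and fold ribosomal RNA in the nucleolus. Of 43 measured, 39 fell and 1 rose, with a median difference of -0.69. The list median began at 0.38 relative to control, passed -0.06 at 24 h and ended at -0.27, and the 8 h and 48 h medians of the single arrays did not overlap. Against control, 36 members were higher and none lower at 8 h, and none higher and 26 lower at 48 h. Of the 43, 23 were called above control at 8 h and below it at 48 h, which is 53.5% of the list and 7.17% of the 321 genes that did so.

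LYAR stood at 0.97, 0.83 and 0.87 at 8 h and at -0.49, -0.36 and -0.64 at 48 h (difference -1.39, SE 0.08, adjusted p = 5.48e-08). UTP20, part of the machinery that cuts the precursor of the small subunit RNA, fell from 0.84, 0.59 and 0.68 to -0.43, -0.40 and -0.83 and was 2.38-fold lower. PNO1, needed to mature the small subunit, fell from 0.69, 0.57 and 0.73 to -0.44, -0.36 and -0.53. In all 3 genes, the 8 h arrays lay above control and the 48 h arrays below it.

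NOP16 was 2.11-fold lower and DKC1, the pseudouridine synthase dyskerin, 2.05-fold lower. Outside the rule for named genes, the nucleolar proteins NCL and FBL, an RNA methyltransferase, were 1.61-fold and 1.41-fold lower, and the RNA polymerase I subunits POLR1A and POLR1B 1.71-fold and 1.75-fold lower. NOB1, the nuclease that makes the last cut of the small subunit RNA, was the 1 member that rose (difference 0.25, SE 0.07), a call lost without 8 h replicate 2 (adjusted p = 0.0644).

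The E-box CACGTG, the sequence that MYC and related factors recognise, stood in 40.9% of the promoter windows of these genes (18 of 44 windows, 37 genes) and in 7.26% of all windows. The E-box was added to the search after the values were seen, and it reads the same on both strands. Its share was 24.0% among genes that fell at least 2-fold, 12.1% among all that fell, 6.82% among all that rose and 17.6% among those that went from above to below control. No E-box stood in the windows of NOP16 or DKC1 or in another window of LYAR. These 4 windows were chosen because they hold one, and PRMT3 is not on the list. They belong to genes that were 2.16 to 2.79-fold lower at 48 h, with the E-box in capitals.
UTP20, chr12:101279855-101280154, plus strand: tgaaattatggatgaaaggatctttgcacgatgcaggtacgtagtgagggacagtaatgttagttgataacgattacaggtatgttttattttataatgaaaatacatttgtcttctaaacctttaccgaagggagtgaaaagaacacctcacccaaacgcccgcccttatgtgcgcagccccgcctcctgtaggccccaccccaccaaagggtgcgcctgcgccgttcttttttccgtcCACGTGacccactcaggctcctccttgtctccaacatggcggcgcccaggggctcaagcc
PNO1, chr2:68157638-68157937, plus strand: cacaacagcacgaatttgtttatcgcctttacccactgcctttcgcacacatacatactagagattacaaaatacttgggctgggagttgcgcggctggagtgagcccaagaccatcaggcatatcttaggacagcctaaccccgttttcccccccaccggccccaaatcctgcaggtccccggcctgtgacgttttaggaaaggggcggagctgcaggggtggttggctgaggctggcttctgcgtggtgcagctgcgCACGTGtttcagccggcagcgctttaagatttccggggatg
LYAR, chr4:4289972-4290271, minus strand: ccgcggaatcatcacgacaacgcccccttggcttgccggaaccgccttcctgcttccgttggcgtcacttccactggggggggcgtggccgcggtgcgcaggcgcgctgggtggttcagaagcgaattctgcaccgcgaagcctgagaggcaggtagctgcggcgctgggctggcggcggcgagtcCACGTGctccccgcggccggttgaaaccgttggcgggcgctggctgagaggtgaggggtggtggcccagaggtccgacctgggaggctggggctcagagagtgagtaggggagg
PRMT3, chr11:20387466-20387765, plus strand: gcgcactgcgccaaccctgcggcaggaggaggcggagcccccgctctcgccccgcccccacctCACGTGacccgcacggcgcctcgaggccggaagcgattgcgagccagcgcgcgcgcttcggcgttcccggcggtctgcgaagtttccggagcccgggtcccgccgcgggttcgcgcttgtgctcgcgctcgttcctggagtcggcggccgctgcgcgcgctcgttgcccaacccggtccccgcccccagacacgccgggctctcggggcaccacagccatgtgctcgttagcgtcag

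MYC itself, a driver of ribosome production and a target of Wnt signalling, was near control at 8 h (0.18, 0.09 and 0.06) and below it at 48 h (-0.60, -0.64 and -0.52). It was 1.62-fold lower (difference -0.70, SE 0.06, adjusted p = 1.37e-06).

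Small nucleolar RNAs guide the modification of ribosomal RNA and are mostly released from introns of host genes. Of 175 measured, 35 fell and 1 rose. By class, 25 of 112 C/D box RNAs and 10 of 61 H/ACA box RNAs fell. The median difference was -0.07 in both classes, so most members moved little. SNORD14E, which the naming rule skipped among the largest falls, went from a mean of 0.20 at 8 h to -1.29 at 48 h. Other falls, named after their values were seen, were those of SNORD58A (-0.95, SE 0.23), SNORD75 (-0.92, SE 0.12) and SNORA74A (-0.83, SE 0.09). SNORD94 was the 1 that rose (0.48, SE 0.07). Probes of a gene array cannot separate a snoRNA from the unspliced transcript of its host gene. Cytosolic ribosomal proteins had smaller differences: 9 of 35 fell and 1 rose, with a median of -0.08. RPL23 fell by 0.46 and RPS7, RPS23 and RPL13 by 0.31 each, while RPS27 rose by 0.22. Processed pseudogenes share the sequence of many ribosomal proteins, so single values are uncertain, and the 2 probe sets of RPS7 gave -0.45 and -0.17.

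Genes of purine synthesis fell back from an early rise. De novo synthesis builds the purine ring with 2 folate-dependent steps, and salvage recovers free bases. Of 17 measured, 14 fell and 1 rose, with a median of -0.45. Their median was 0.35 at 8 h, 0.11 at 24 h and -0.08 at 48 h against control. GART, which carries out a folate-dependent step, went from 0.46, 0.28 and 0.32 to -0.32, -0.19 and -0.35 and was 1.56-fold lower. PPAT, the first enzyme of the pathway, was 1.53-fold lower, PFAS 1.52-fold and PAICS 1.5-fold. ATIC, the enzyme of the last steps and a folate user, went from 0.26, 0.20 and 0.18 to -0.28, -0.25 and -0.38. GART and ATIC ended below control, while PPAT, PFAS and PAICS ended at values that did not pass the test against control (adjusted p of 0.478, 0.97 and 0.0508). The 1 member that rose was ADSS1 (difference 0.35, SE 0.08).

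Of 23 pyrimidine and deoxynucleotide genes, 12 fell and 3 rose, with a median of -0.14, and the rises were no larger a share than among all genes. DHODH, the mitochondrial enzyme of pyrimidine synthesis, went from 0.88, 0.73 and 0.64 to -0.35, -0.28 and -0.34 and was 2.10-fold lower. CTPS1, the CTP synthase, was 1.67-fold lower, with 0.92, 0.93 and 0.87 at 8 h and 0.15, 0.20 and 0.17 at 48 h. CDA, the cytidine deaminase of salvage, rose 3.17-fold, from 0.01, 0.16 and 0.10 to 1.92, 1.79 and 1.55. TK2, the mitochondrial thymidine kinase, and SAMHD1, which degrades deoxynucleotides, both rose 1.57-fold.

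TYMS, which makes thymidylate and uses reduced folate, did not follow. Its values were 0.76, 0.72 and 0.74 at 8 h and 0.80, 0.78 and 0.68 at 48 h. The difference was 0.02 (SE 0.05, adjusted p = 0.888), and the values of both groups overlapped, all above control. In the folate and 1-carbon list, 11 of 26 fell and 2 rose, with a median of -0.16. SLC25A32, the mitochondrial folate carrier, fell from 0.52, 0.41 and 0.43 to -0.34, -0.35 and -0.67. Methionine synthase (MTR) was 1.59-fold lower and MTHFD1, a multifunctional cytosolic enzyme, 1.47-fold lower. MTHFD2, the mitochondrial dehydrogenase, was below control at both times (-0.46, -0.59 and -0.50, then -0.55, -0.42 and -0.63) and differed by -0.02 (adjusted p = 0.86). Its 24 h mean was 0.00, so the similar values at 8 and 48 h do not describe the time between.

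Of the carriers and enzymes that set the amount of methotrexate in a cell, FOLR1, a folate receptor, changed most. It went from -0.91, -0.77 and -0.79 at 8 h to 0.64, 0.53 and 0.59 at 48 h, a 2.66-fold rise (SE 0.06, adjusted p = 6.03e-09) across the control level. The reduced folate carrier SLC19A1 was 1.23-fold lower, the proton-coupled carrier SLC46A1 1.29-fold lower and FPGS, which retains folates by adding glutamates, 1.43-fold lower. The efflux pumps ABCG2 and ABCC4 were 1.47-fold and 1.30-fold lower. In all, 6 of 18 fell and 1 rose, or 2 without 8 h replicate 1 or control replicate 3 or with centred arrays. With array weights 5 rose and 7 fell. GGH, which removes the glutamates, differed by 0.10 (SE 0.07, adjusted p = 0.364, and 0.0252 with array weights).

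DNA replication and G1/S genes fell in part, and most were still above control at 48 h. Of 57 measured, 30 fell and 3 rose, with a median of -0.20. The list median was 0.52 at 8 h, 0.47 at 24 h and 0.40 at 48 h, and 42 members were called above control at 48 h and 2 below it, against 55 and none at 8 h. Cyclins E led the fall. CCNE2 went from 0.95, 0.94 and 1.07 to -0.05, 0.02 and -0.08, a full return to the control level (difference -1.02, SE 0.06, adjusted p = 9.24e-08), and CCNE1 was 1.83-fold lower. POLA1, the catalytic subunit of DNA polymerase alpha, fell from 0.69, 0.43 and 0.32 to -0.33, -0.33 and -0.49, and TIPIN, of the fork protection complex, was 1.66-fold lower.

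CDT1, which licenses replication origins, went the other way, from 0.55, 0.47 and 0.44 to 1.15, 0.97 and 1.44, a 1.62-fold rise. E2F1 and E2F2 were also called higher, by 0.17 and 0.20 (adjusted p of 0.0351 and 0.0497). The call of E2F1 was lost without any 48 h array or 8 h replicate 1 or 2 (0.0538 to 0.125). That of E2F2 was lost without any 8 h or 48 h array (0.0541 to 0.138), 24 h replicate 1 or 2, or control replicate 3. The E2F site, searched as TTTGGCGC or TTTCCCGC, stood in 38.3% of the promoter windows of the list and in 2.27% of all. Of 40 DNA damage repair genes, 16 fell and 2 rose (1 without 8 h replicate 3), with a median of -0.15. The count of falls rests on small differences: 9 to 10 fell without 8 h replicate 1, without 48 h replicate 2, with each array centred on its median or in a fit of the 6 arrays alone. MSH6, of mismatch repair, was 1.53-fold lower, and EXO1, an exonuclease, 1.49-fold lower. The kinase ATR, the deubiquitinase USP1 and RAD51C, of homologous recombination, were 1.29 to 1.33-fold lower.

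Replication-dependent histone genes, which are transcribed when DNA is made, had the second lowest median of the lists, after ribosome biogenesis. Of 48 measured, 36 fell and 4 rose, with a median difference of -0.62. Most of that fall had taken place by 24 h: the list median was -0.33 at 8 h, -0.96 at 24 h and -0.99 at 48 h. H1-5, a linker histone, went from -0.18, -0.01 and -0.11 to -2.13, -1.97 and -1.79 and was 3.64-fold lower. H3C12 was 2.8-fold lower and H4C4 2.53-fold lower, the latter from 0.09, 0.09 and 0.02 to -1.24, -1.26 and -1.31. The box CCAAT, searched on both strands, stood in 91.1% of the promoter windows of the list and in 34.6% of all. The 4 members that rose, listed after their values were seen, were H2BC21 (0.90, SE 0.13), H2BC12 (0.58, SE 0.09), H4C8 (0.43, SE 0.14) and H2BC11 (0.22, SE 0.07). The calls of H4C8 and H2BC11 depended on single arrays. H4C8 was not called without 8 h replicate 1 or 2 or 48 h replicate 1 or 2 (adjusted p of 0.0558 to 0.13), nor H2BC11 without 8 h replicate 1 or 3, 24 h replicate 1 or 48 h replicate 1 or 3 (0.0504 to 0.163). All 4 had been called below control at 8 h, and none was called against control at 48 h. Histone genes of these clusters are close copies of each other, so the values of single genes are uncertain.

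Mitotic genes showed no common shift. Of 59 measured, 16 rose and 8 fell, with a median of 0.06. The count of rises was 8 to 10 without 8 h replicate 2, 8 h replicate 3 or 48 h replicate 1, and 29 with array weights. The phosphatases CDC25B and CDC25C, which start mitosis, rose 1.41-fold and 1.38-fold. The checkpoint protein MAD2L1, the kinase partner CKS2 and the spindle protein HMMR were 1.36 to 1.44-fold lower, and the call of HMMR was lost without 8 h replicate 1 (adjusted p = 0.0527). Cyclin B1 (CCNB1) stood at -0.09, -0.07 and 0.00 at 8 h and at -0.07, -0.04 and -0.08 at 48 h (difference -0.01, SE 0.05, adjusted p = 0.917). MKI67, a marker of proliferation, differed by -0.24 (SE 0.11, adjusted p = 0.138), with overlapping values of 0.45, 0.25 and 0.29 at 8 h and 0.21, 0.27 and -0.21 at 48 h.

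NRF2 targets, the antioxidant and NADPH-supplying genes switched on by the factor NRF2, fell in most cases. Of 27 measured, 19 fell and none rose (1 rose without 8 h replicate 1, without control replicate 3 or with centred arrays), with a median of -0.42 and list medians of 0.30, 0.15 and -0.10 at the successive times. After AKR1B10, the related AKR1C2 fell from 1.13, 1.38 and 1.30 to -0.15, -0.14 and -0.27 and was 2.75-fold lower. AKR1C3 was 1.87-fold lower. Aldo-keto reductase genes are close relatives, and probes of one can pick up another. ALDH3A1, an aldehyde dehydrogenase, fell from 1.2, 1.31 and 1.24 to -0.21, -0.19 and 0.12. SLC7A11, the cystine carrier, differed from these: it was below control at 8 h (-0.32, -0.52 and -0.39) and fell further, to -1.64, -1.67 and -1.94. GCLM, of glutathione synthesis, and NQO1, named after their values were seen, were 1.68-fold and 1.29-fold lower. The antioxidant response element, searched as TGACNNNGC, also added after the values were seen, stood in 33.3% of the promoter windows of the list (9 of 27) and in 13.3% of all. Its share was 14.4% among all genes that fell, 14.9% among all that rose and 8.0% among those that fell at least 2-fold.

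The integrated stress response, which the factor ATF4 runs when amino acids are short, stayed below control at both times, while single members moved both ways. Of 46 measured, 17 fell and 9 rose from 8 to 48 h, with a median of -0.06. Against control, 38 were lower at 8 h and 41 at 48 h, and the list median was -0.45, -0.27 and -0.64 at the successive times. PSAT1, of serine synthesis, went from -0.73, -0.80 and -0.80 to -1.36, -1.50 and -1.49, a 1.60-fold fall. SLC7A1, a carrier of basic amino acids, was 1.41-fold lower. By contrast NUPR1, a stress-induced chromatin protein, rose 2.05-fold, from -1.97, -1.97 and -1.88 to -1.0, -1.03 and -0.68, and DDIT3, the factor CHOP, rose 1.43-fold. Both remained below control. Of 30 heat shock and unfolded protein response genes, 7 rose and 5 fell, beside 15.3% and 14.4% of all genes. The falls were thus near the share among all genes. DNAJB9 and HERPUD1, induced by stress of the endoplasmic reticulum, rose 1.56-fold and 1.48-fold, as did the small heat shock protein HSPB1 (1.5-fold). HSPE1 and HSPD1, the paired chaperonins of mitochondria, were 1.67-fold and 1.33-fold lower and went from above to below control. The cytosolic chaperones HSPH1, HSP90AB1 and HSP90AA1 were the other members that fell.

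Immediate early genes and the feedback genes of ERK signalling follow growth factor input within minutes, and they moved both ways. Of 40 measured, 14 rose and 9 fell, with a median of 0.05, and -0.01 without 48 h replicate 3. EGR1 was at -1.32, -1.26 and -1.24 at 8 h and lower still at 48 h (-1.91, -1.99 and -1.81), and DUSP6, the phosphatase that turns off ERK, was 1.5-fold lower. CCN1, a matrix signalling protein, rose 2.01-fold and DUSP1, a phosphatase of stress kinases, 1.74-fold, from -0.22, -0.29 and -0.34 to 0.60, 0.48 and 0.47. In the EGF receptor family, 5 of 15 fell and 3 rose. Without 8 h replicate 1, 3 fell, and 5 rose without control replicate 3 or with each array centred on its median. The ligand EREG was at control level at 8 h (0.04, 0.03 and 0.01) and at -0.57, -0.69 and -0.57 at 48 h. The receptor inhibitor ERRFI1 was 1.35-fold lower, the receptor ERBB3 rose 1.37-fold and the ligand BTC 1.26-fold. NRG4 differed by -0.39 (adjusted p = 0.0252), a call that was lost without 8 h replicate 1, 48 h replicate 2 or 48 h replicate 3 (0.118, 0.0512 and 0.0781).

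Every called gene of the respiratory chain and ATP synthase fell: 20 of 34 fell and none rose (1 rose with centred arrays), with a median of -0.22. CYC1, cytochrome c1, went from 0.30, 0.34 and 0.35 to -0.31, -0.27 and -0.09. COX7B was 1.61-fold lower, and the complex I subunits NDUFB3 and NDUFB8 1.44-fold and 1.38-fold lower. NDUFAF4, an assembly factor of complex I outside the list, was 2.64-fold lower, with 0.43, 0.60 and 0.58 at 8 h and -0.94, -0.73 and -0.92 at 48 h. Hypoxia and glycolysis genes split, with 9 of 34 higher and 10 lower. ENO2, the neuronal enolase, rose 1.99-fold, P4HA2, a collagen prolyl hydroxylase, 1.97-fold, and the aldolase ALDOC 1.95-fold, while the hexokinase HK2 was 1.56-fold lower. Of 23 cholesterol synthesis genes 8 rose and 2 fell, or 1 without 8 h replicate 1 or 2 or 48 h replicate 1. TM7SF2 rose 1.81-fold, INSIG1, the sterol sensor partner, 1.49-fold and SCD, a desaturase, 1.29-fold, all from below control at 8 h. The rise of MSMO1 (0.44, adjusted p = 0.0142) was lost without 8 h replicate 2 (0.0625), 48 h replicate 1 (0.0615) or 48 h replicate 2 (0.0583).

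Lists of intestinal cell types had medians near 0, with changes in single members. Their counts stand beside the 15.3% of all genes that rose and the 14.4% that fell. Of 33 goblet cell and mucin genes 8 rose and 3 fell, with a median of 0.02. The membrane mucin MUC20 rose 2.42-fold, from -0.60, -0.69 and -0.54 to 0.66, 0.59 and 0.74, and BCAS1 2.11-fold. MUC13 and MUC1, also membrane mucins, rose 1.57-fold and 1.55-fold. MUC2, the secreted gel-forming mucin of goblet cells, stood at 0.19, 0.26 and 0.20 and then at 0.18, 0.17 and 0.29, a difference of 0.00 (SE 0.05, adjusted p = 0.981). Of 36 enterocyte genes 7 rose and 1 fell (2 without 8 h replicate 3 or 48 h replicate 3), with a median of 0.00. Carbonic anhydrase CA2 rose 1.41-fold, keratin 20 (KRT20) 1.39-fold, and CEACAM1 and CEACAM6 1.32-fold and 1.28-fold, while CEACAM5 was 1.28-fold lower. Genes of the CEACAM family resemble each other closely, so these values are uncertain.

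Of 28 stem cell and Wnt target genes 5 rose (3 in a fit of the 6 arrays alone) and 7 fell, with MYC and ETS2 among the falls and CCND1 and NKD1 among the rises. The 19 enteroendocrine genes gave 1 rise and 2 falls, no larger shares than the 15.3% and 14.4% of all genes. ISL1 was 1.41-fold lower. SCG5 (0.17, adjusted p = 0.0324) was not called without 8 h replicate 1 (0.114) or 3 (0.0594) or without 48 h replicate 1 (0.0628) or 2 (0.116). SST (-0.20, adjusted p = 0.0374) was not called without 8 h replicate 2 (0.0677) or 3 (0.174), 48 h replicate 1 (0.127) or 2 (0.0609), or control replicate 1 (0.0505). Of 32 junction and keratin genes 12 rose and 6 fell. KRT23 rose 2.70-fold, from -0.40, -0.65 and -0.67 to 0.94, 1.01 and 0.64, and claudin 1 (CLDN1) 1.69-fold. Claudin 2 (CLDN2), which forms a paracellular cation channel, went the opposite way, from 0.80, 0.76 and 0.59 to -0.48, -0.39 and -0.38, and was 2.20-fold lower. KRT80 rose 1.54-fold. EPCAM, the epithelial surface protein, differed by -0.21 (SE 0.06, adjusted p = 0.00959).

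Of 41 matrix, integrin and mesenchymal state genes, 15 rose and 5 fell, with a median of 0.09. AXL, a receptor tyrosine kinase, rose 2.12-fold, from 0.62, 0.48 and 0.43 to 1.58, 1.55 and 1.67, and the urokinase PLAU 2.14-fold. CAV1, the caveolar coat protein, rose 2.09-fold from a level already above control (1.2, 1.11 and 1.07, then 2.29, 2.30 and 1.98), and TGFB2 1.63-fold. TNC, the matrix glycoprotein tenascin C, fell 2.15-fold, from 1.77, 1.52 and 1.45 to 0.53, 0.52 and 0.39. Of the markers of other cell types, 2 of 18 for fibroblasts and 2 of 19 for leukocytes and endothelium were called (3 fibroblast markers without 48 h replicate 3), beside 29.7% of all genes. ACTA2 rose 1.58-fold and TAGLN was 1.19-fold lower, and CD4 and CD68 rose 1.68-fold and 1.65-fold. Whether any of these markers reflects other cells cannot be read from values that hold no level.

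A total of 657 genes lay on opposite sides of control at the 2 times. Of these, 336 (1.83% of those tested) were called lower than control at 8 h and higher at 48 h, and 321 (1.75%) the other way. Both comparisons use the same 3 control arrays. The medians were -0.32 and 0.35 for the first group and 0.30 and -0.30 for the second, so most reversals were small. At 24 h, 247 of the 336 had a mean above 0 and 238 of the 321 a mean below 0. The 24 h mean lay between the others for 94.6% and 97.8% of them, a share that the choice of genes on opposite sides of control itself favours. All 657 were also called between 8 and 48 h, which nearly follows from opposite calls against control in the same fit. Requiring at least a 1.5-fold difference from control at both times left 16 genes that rose through control and 1, AKR1B10, that fell through it.

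**Figure D5:**
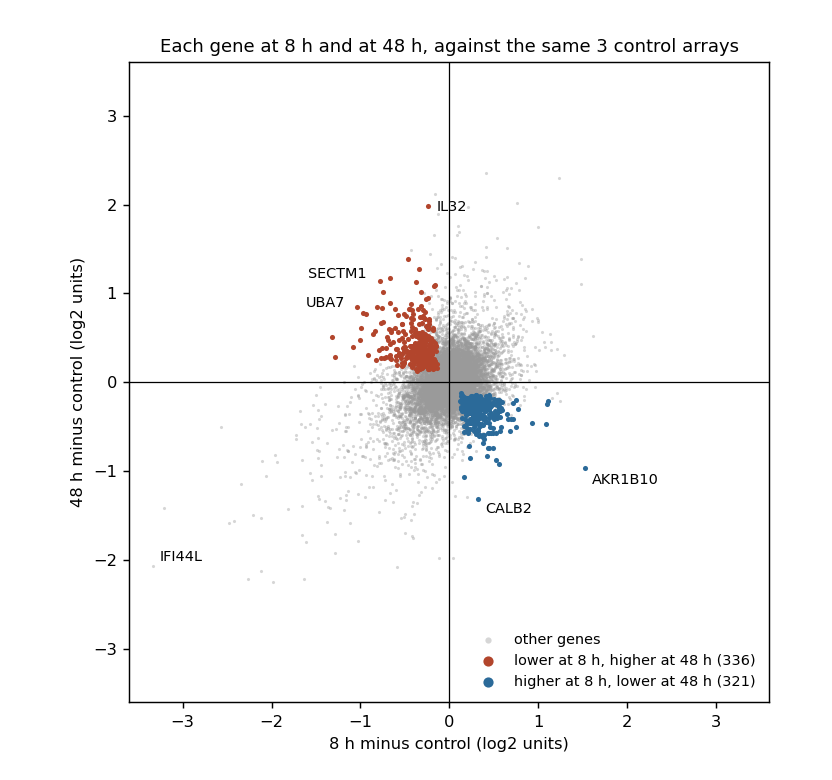
Each point is a gene, placed by its difference from control at 8 h (horizontal axis) and at 48 h (vertical axis), in log2 units and from the same 3 control arrays. The 336 coloured genes at the upper left were lower at 8 h and higher at 48 h, the 321 at the lower right the reverse; AKR1B10 lies farthest to the lower right, and IFI44L is below control at both times.

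Ranked by the smaller of their differences from control, UBA7 came first among the genes that rose through control. DUSP10, a phosphatase of p38 and JNK, went from -0.53, -1.12 and -0.96 to 0.91, 0.88 and 0.57. ANKRD1, a muscle ankyrin protein and target of YAP, went from -0.96, -0.92 and -1.25 to 0.72, 0.85 and 0.57, a 3.37-fold rise. RARRES1, a retinoic acid responsive gene, rose 3.27-fold and DAB2, an endocytic adaptor, 3.02-fold. The autophagy receptor OPTN rose 2.71-fold and ATP6V1B1, a subunit of the vacuolar proton pump, 2.68-fold. GSDMB went from -0.65, -0.72 and -0.66 to 1.19, 1.21 and 1.12. None of these genes had a value at 8 h above 0 or a value at 48 h below it.

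Among the genes that fell through control, AKR1B10 came first and PRMT3 next, from 0.62, 0.41 and 0.59 to -0.81, -0.90 and -1.11. RPP40, a subunit of RNase P, was 2.35-fold lower, PUM3, a nucleolar RNA-binding protein, 2.13-fold, NAF1, an assembly factor of H/ACA particles, 2.11-fold and PUS7L, a pseudouridine synthase, 2.08-fold lower. UTP20 and NDUFAF4, described above, belong here too, as do PRMT6, a histone arginine methyltransferase (2.01-fold lower), and PLA2G4A, a phospholipase that releases arachidonic acid (2.35-fold lower). For RPP40, NAF1 and PUS7L the lowest value at 48 h was that of replicate 3 (-0.97, -0.98 and -0.95), with -0.50 to -0.25 on the other 48 h arrays. DLEU2, a long noncoding RNA, was skipped in this ranking.

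Probe sets that name several genes or none were tested apart. Of 1752 probe sets that name several genes, 257 rose (14.7%) and 186 fell (10.6%). Of 7807 with no gene named here, 174 rose (2.23%) and 257 fell (3.29%). Of 173 microRNA loci, MIR93 (0.25, SE 0.06) and MIR330 (0.15, SE 0.05) rose, and MIR31 (-0.65, SE 0.07) and MIRLET7D (-0.24, SE 0.07) fell, values that describe the precursor region on a gene array and not the mature microRNA. MIR330 was not called without 8 h replicate 2 or 3 or 48 h replicate 3, nor MIRLET7D without 8 h replicate 3 or 48 h replicate 1. Of 631 long noncoding RNAs 50 rose (7.92%) and 22 fell (3.49%). These RNAs and the microRNA loci (1.16% each way) were part of the 18377 genes, of which 15.3% rose and 14.4% fell.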

How the data were processed

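The authors deposited log2 values of 12 Affymetrix HuGene 1.0 ST arrays, made with RMA and hg19 per the submitters' processing notes, with no versions given. In all 28869 probe sets the median of the 3 control arrays was 0, so the deposited values are ratios to that median. How they were centred was not given, and the log base was taken from RMA. The number of arrays limits the precision.

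Probe sets were named from the platform table: 19310 had 1 gene, 1752 several and 7807 none. Probe sets of the same gene were averaged (685 of 18377 genes). Group means of all 12 arrays were fitted with limma 3.58.1 (8 residual and 4.71 prior degrees of freedom), and 48 h minus 8 h was tested two-sided with Benjamini-Hochberg adjustment over 18377 genes at 0.05. Fold changes come from log2 differences.

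Named genes were the 15 largest rises and falls among called genes without overlap, up to 5 called members a list, up to 10 reversing genes each way and 13 fixed genes, skipping small RNAs and noncoding genes. The members, lists and rules were chosen with earlier results of these data known. RefSeq promoter windows (GRCh38.p14) covered 14210 genes and were used for sequence alone, since the files' build is hg19.

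Alternatives were array weights, centring, a robust fit, a replicate block, the 6 arrays alone, other probe set rules, stricter thresholds and leaving out each array.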

Additional observations from a re-analysis of the deposited data

How the results depend on the processing

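The main counts were 5464 genes called, 2816 higher and 2648 lower, with 336 and 321 on opposite sides of control. Array weights gave 8569 called, 4352 of them lower, and 670 and 632 on opposite sides. At 48 h these weights were 0.797 for replicate 1, 6.52 for replicate 2 and 0.199 for replicate 3. Every count given with array weights therefore rests mostly on 1 array at 48 h. A test against a 1.2-fold change left 1517 genes, 828 higher and 689 lower. Requiring at least 1.5-fold left 1033, 580 and 453, with 16 and 1 on opposite sides. An adjusted p under 0.01 left 173 and 133 on opposite sides. Leaving out each array in turn gave 4726 to 5756 called, 2324 to 2984 higher, 2182 to 2772 lower, 212 to 397 rising through control and 186 to 345 falling through it. The falling count was 209 without control replicate 1, and without control replicate 2 the counts were 212 and 186. Within 1.5 times of the main counts were centred arrays (2965 higher, 2485 lower), the robust fit, the 6 arrays alone (4696 called) and the other probe set rules. Same-numbered replicates at 8 and 48 h correlated in their deviations at 0.446, -0.33 and 0.111, so the numbers were not taken as pairs. The replicate block gave 5712 called (2933 higher, 2779 lower) and 364 and 363 on opposite sides.

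For the 183 named genes under 19 settings, 3444 of 3465 results kept their direction and call, 20 lost it, 1 gained it and none reversed. The genes concerned were EPCAM, GGH, HMMR, MSMO1, NRG4, SCG5 and SST. With the 6 arrays alone, EPCAM (0.0538), HMMR (0.0557), SCG5 (0.0568) and SST (0.0791) missed an adjusted p of 0.05. The cause of these changes was not tested. Most of the 183 genes were named because they were called in the main fit, so the choice itself favours kept calls. The 1.2-fold test, the adjusted p under 0.01 and the 1.5-fold minimum were not applied to them. Leaving out 48 h replicate 3 moved no list's median by more than 0.06. With array weights BCL2 family rises went from 9 to 16, unfolded protein response rises from 7 to 13 and stem cell and Wnt falls from 7 to 11. The same setting gave 6 rises in the EGF receptor family list, 7 in DNA damage repair and 1 among NRF2 targets. It gave 1 rise in the respiratory chain, 6 in DNA replication, 5 in pyrimidine genes, 5 among methotrexate carriers and 2 among ribosomal proteins. Falls with these weights were 2 among NF-kB targets, 7 among goblet cell genes, 4 among enterocyte genes and 6 among enteroendocrine genes. They were 5 in the BCL2 family and 3 in the lysosome list. A filter on dim probes was not run, because the values hold no level.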
